A study of Homo sapiens with 4 samples.

Results

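Peaks of RNA recovered with HuR were examined in the last annotated coding exon of each transcript, the exon in which the reading frame ends. A peak was counted when its deposited annotation read exon k of n with k equal to n, and transcripts of a single exon were included. The list held 635 such peaks among 14149, or 4.49% (Wilson 95% interval 4.16 to 4.84), and they made up 35.7% (33.5 to 38) of the 1778 peaks annotated to coding exons. This share depended on the position taken for a peak, and was 7.173% of the centres in coding exons when every centre in the list was moved back by 173 bp, as described below. Each peak was assigned to the gene of the RefSeq transcript in its annotation, which gave 540 host genes.

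MDA-MB-231, an established human triple-negative breast cancer cell line, was the only cell line used, and no treatment was recorded. RNA was recovered from lysed cells by immunoprecipitation, with mouse anti-HuR antibody in 2 samples and with mouse IgG, the control, in 2 samples. The libraries were made with a TruSeq RNA kit (v2) from RNA not selected for poly(A) tails. The deposited result was 1 list for all 4 samples, so no peak had a value per replicate or for IgG, no SD could be given, and neither the difference between HuR and IgG nor the spread between replicates was measured here.

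HuR, encoded by ELAVL1, binds RNA at stretches rich in A and U or in U alone, is known mainly for sites in 3′-UTRs and introns, and stabilises many of the mRNAs it binds. The last coding exon encodes the C-terminus of the protein, ends its coding part at the stop codon, and in most mRNAs runs on without interruption into the 3′-UTR. Peaks in it therefore lie at the border between coding sequence and the region where HuR sites are best known.

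The deposited annotation rests on the centre of the peak. To show how little coding sequence some of the highest peaks had under their centre, the whole coding part of the last exon is printed for the 5 hosts with the highest peak scores among those whose coding part was no longer than 173 bp, the distance from the centre of a peak to its edge. Positions are in hg38, and the sequence is that of the mRNA strand with T for U. They lie at chr12:123596605-123596729 on the + strand (TMED2), chr12:93410039-93410079 on the − strand (UBE2N), chr10:90912866-90912976 on the − strand (ANKRD1), chr1:112669992-112670132 on the + strand (CAPZA1) and chr12:6237763-6237828 on the + strand (CD9). Capitals mark the 5 bases around the peak centre and the stop codon, which run together in UBE2N.
TMED2: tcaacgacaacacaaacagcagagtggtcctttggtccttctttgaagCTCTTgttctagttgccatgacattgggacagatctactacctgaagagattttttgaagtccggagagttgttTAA
UBE2N: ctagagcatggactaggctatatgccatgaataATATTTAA
ANKRD1: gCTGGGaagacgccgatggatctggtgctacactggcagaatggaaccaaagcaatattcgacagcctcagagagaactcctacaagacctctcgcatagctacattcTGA
CAPZA1: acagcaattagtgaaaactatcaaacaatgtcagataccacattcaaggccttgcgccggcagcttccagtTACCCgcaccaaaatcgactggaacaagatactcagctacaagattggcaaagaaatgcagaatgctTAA
CD9: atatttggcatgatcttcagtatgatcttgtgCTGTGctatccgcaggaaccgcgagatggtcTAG

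These coding parts were 125, 41, 111, 141 and 66 bp long in that order, against a peak length of 347 bp. Every one of these 5 windows therefore also covered intron or 3′-UTR. The pentamer ATTTA, the core of the AU-rich element, ran into the stop codon of UBE2N.

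The highest score was that of TMED2, a cargo receptor of vesicles between the endoplasmic reticulum and the Golgi, with 3392.2 at chr12:123596482-123596828. The score is HOMER's own value for a peak, and the scale was not stated by the authors. AXL, a receptor tyrosine kinase, followed with 2768.7 at chr19:41259661-41260007, and UBE2N, the ubiquitin-conjugating enzyme of lysine-63-type chains, with 2638.5 at chr12:93409871-93410217. CNN3, an actin-binding calponin, had 2362.7, and ANKRD1, an ankyrin-repeat protein known as a YAP target, had 2297.1. CAPZA1, a subunit of the actin capping protein, had 1874.3, and PAFAH1B2, a subunit of platelet-activating factor acetylhydrolase, had 1728.9. The tetraspanin CD9 had 1721.1, the prolyl isomerase FKBP1A had 1416.9, and PRKAR1A, a regulatory subunit of protein kinase A, had 1318.5. All 10 of these highest hosts had their peak on the strand opposite to the gene, and the centre of the FKBP1A peak lay in the 3′-UTR of that gene's GENCODE canonical transcript. The first peak in rank on the strand of its gene was in PDIA4, a protein disulfide isomerase of the endoplasmic reticulum, at 1279.6.

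The 635 scores ran from 8.81 to 3392.2, with a median of 66.8 (95% interval of the median 54.6 to 80.5) and quartiles of 25.1 and 157. In first and internal coding exons, 1143 peaks had a median of 38.7 (35.7 to 42.1). In 3′-UTRs, 2062 peaks had a median of 65.45 (59.0 to 71.2). The median log2 score in last coding exons was higher by 0.79 (0.47 to 1.08) than in the other coding exons, while the interval of the last-exon median overlapped that of the 3′-UTR. Among the 142 peaks in the top 1% of the list, with scores of at least 1029, 21 lay in last coding exons. This was 3.31% of the last-exon peaks, against 1.22% of the peaks in other coding exons and 1.94% of those in 3′-UTRs. The intervals here and below cover counting error only, because peaks are not replicates and reads had no molecular identifiers, and no difference between classes of peaks was tested.

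**Figure D1:**
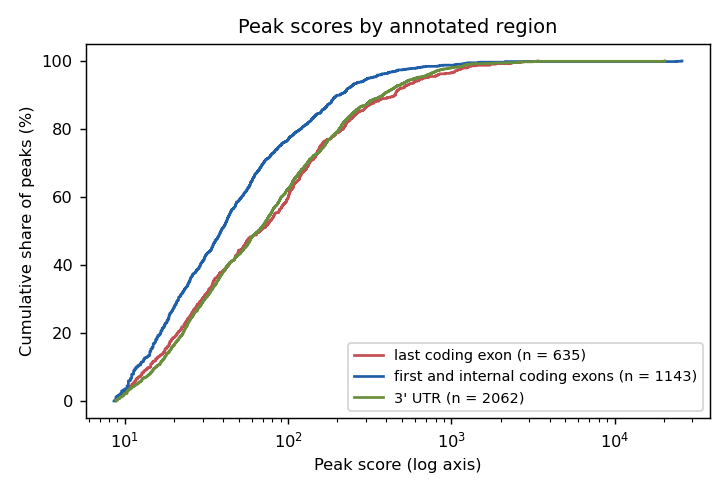
Cumulative share of peaks (%) against peak score on a log axis, for 635 peaks in last coding exons, 1143 in first and internal coding exons and 2062 in 3′-UTRs. The curve of the last coding exons runs along that of the 3′-UTRs (medians 66.8 and 65.45) and to the right of that of the other coding exons (median 38.7).

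The host genes varied in the number of peaks and in gene structure. There was 1 such peak in 452 hosts, 2 in 82, 3 in 5 and 4 in 1. HTR1D, a serotonin receptor gene, was the host with 4, at scores of 12, 11.7, 9.79 and 8.81, all under the lower quartile of the scores. IFIT5, an interferon-induced RNA-binding protein, had 3 peaks at 515.1, 515.1 and 465.0. HASPIN, a histone H3 kinase, had 3 at 95.2, 89.1 and 87.6. FBXO46, an F-box protein, and MCM9, a helicase of the MCM family, also had 3 each, the highest at 29.6 and 20.6. The annotated transcripts had a median of 6 exons (quartiles 4 and 11.5, range 1 to 83). Transcripts of 1 exon carried 37 of the peaks in 23 genes. The highest of these were in PCBP1, a poly(C)-binding protein, at 829.3 and 824.2, in RAP2B, a Ras-family GTPase, at 639.4 and 422.6, and in HNRNPA0, a heterogeneous nuclear ribonucleoprotein, at 591.5. Of 14 genes that the study discusses, ELAVL1 and FOXQ1 among them, 0 hosted a last-exon peak. Among all genes with a peak in the list, 540 of 3343, or 16.2% (14.9 to 17.4), were hosts. With so few genes, the count of 0 is not read as a result about them.

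The label was compared with the GENCODE canonical transcript of the same genome build, which was found for 628 of the 635 peaks. The centre lay in the coding part of the last coding exon for 601 of them, or 95.7% (93.8 to 97.0). It lay in an intron for 11, in the 3′-UTR for 10, in an inner coding exon for 4 and outside the transcript for 2. The gene name column of the list, which gives the gene with the nearest start site, named another gene than the host for 289 of 632 peaks, or 45.7% (41.9 to 49.6). Among the 20 highest peaks this held for 14. The share was not computed for other peaks of the list, so it is not read as particular to last-exon peaks. The TMED2 peak was listed under DDX55, the AXL peak under HNRNPUL1 and the UBE2N peak under NUDT4.

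The distance from the peak centre to the stop codon was bounded by the coding part of the last exon, which had a median length of 361 bp for the 601 placed peaks. The median distance from the centre to the last base of the stop codon was 167 bp (147 to 177), with quartiles of 77 and 347 bp and a range of 1 to 2388 bp. It was 58 bp for the same peaks when their centres were moved back, with centres past the stop codon counted as negative. The window of 347 bp held a median of 226 coding bases of the last exon. It was wholly coding for 171 of the 601 placed peaks, or 28.5% (25 to 32.2). It held some 3′-UTR for 52.2% (48.3 to 56.2) and some intron for 55.6% (51.6 to 59.5). The coding part of the last exon had a median length of 255.5 bp in 534 genes with such a peak and of 138 bp in 2535 other genes with a peak in the list.

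The peaks were spread unevenly over the strands. Only 150 of 628, or 23.9% (20.7 to 27.4), had the strand of the host gene. The share was 51.3% (48.4 to 54.2) in the other coding exons and 59.0% (56.8 to 61.1) in 3′-UTRs. Within the other coding exons it was 71.2% (64 to 77.5; 121 of 170) in first exons and 47.8% (44.7 to 51; 459 of 960) in internal exons. First exons were thus uneven in the other direction. The kit does not keep the strand of the RNA, so the strand of a peak is the direction of its reads and not that of a transcript. Of the 478 peaks on the opposite strand, 10, or 2.09% (1.14 to 3.81), had their centre in an exon of another gene on the peak's strand. Peaks on the opposite strand lay near the start of the exon, at a median of 65 bp from it, and 73.6% (69.4 to 77.4) were within 173 bp. Peaks on the strand of the gene lay at a median of 458 bp from the start of the exon, and 2.10% (0.716 to 5.99) were within 173 bp.

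The strand went with the length of the coding part. Among 183 peaks in coding parts of up to 173 bp, 1 was on the strand of the gene, and among 107 in coding parts of 174 to 347 bp, 1 was. The peak in the shortest class belonged to EIF3CL, with 16.2, whose reads cannot be told apart from those of its near-identical copy EIF3C. The peak in the next class belonged to SLC24A5, an ion exchanger, with 99.6. In coding parts of 348 to 694 bp the share was 40.9% (32.8 to 49.6; 52 of 127), and in those of 695 to 2738 bp it was 48.4% (41.3 to 55.5; 89 of 184). The median score was 93.0 in the shortest class, 87.6 and 90.8 in the middle classes and 29.6 (25.7 to 34.5) in the longest.

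HOMER can move tags forward along their reads before it places a peak, and whether this was done is not given in the sources used here. The centre of each peak was therefore also placed 173 bp upstream in the direction of the peak's own strand. Of the 628 peaks, 346, or 55.1% (51.2 to 58.9), then lay in the coding part of the last exon and 263, or 41.9% (38.1 to 45.8), in the 3′-UTR. Of the 150 peaks on the strand of the gene, 140 had the moved position in the last coding part, where 143 had the deposited centre. Of the 478 on the opposite strand, 206 had the moved position in the last coding part, against 458 deposited centres, and 261 had it in the 3′-UTR, against 8 deposited centres. The moved position lay in the 3′-UTR for 182 of the 183 peaks in the shortest coding parts and for 3 of the 184 in the longest. The former count is fixed by the move itself, since a centre on the opposite strand in a coding part of at most 173 bp must pass the stop codon. All 10 highest hosts named above were among the 263. The median score was 91.3 (72.9 to 107.2) for the 263 peaks and 52.5 (43.1 to 68.5) for the 346. Within coding parts of 174 to 347 bp it was 87.6 for the 51 peaks with the moved position in the 3′-UTR and 89.95 for the other 56.

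**Figure D2:**
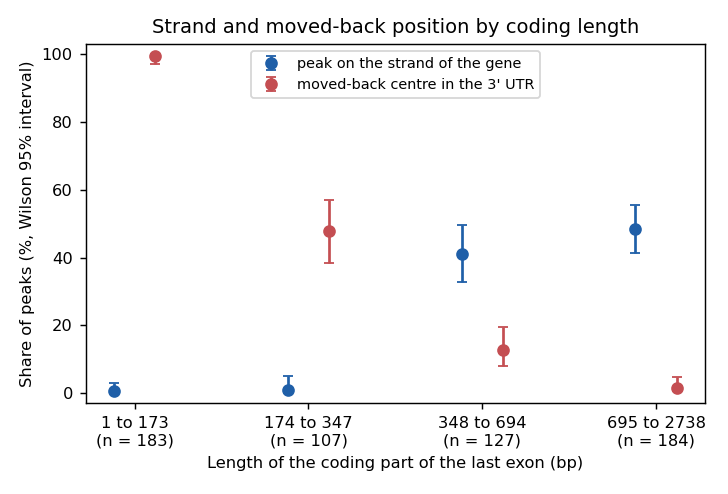
Share of peaks (%) on the strand of the host gene and share whose centre, moved back 173 bp, lay in the 3′-UTR, by length class of the coding part of the last exon (bp), with Wilson 95% intervals as bars. The first share rises from 0.546% to 48.4% across the classes, and the second falls from 99.5%, which the move itself fixes for peaks on the opposite strand, to 1.63%.

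**Figure D3:**
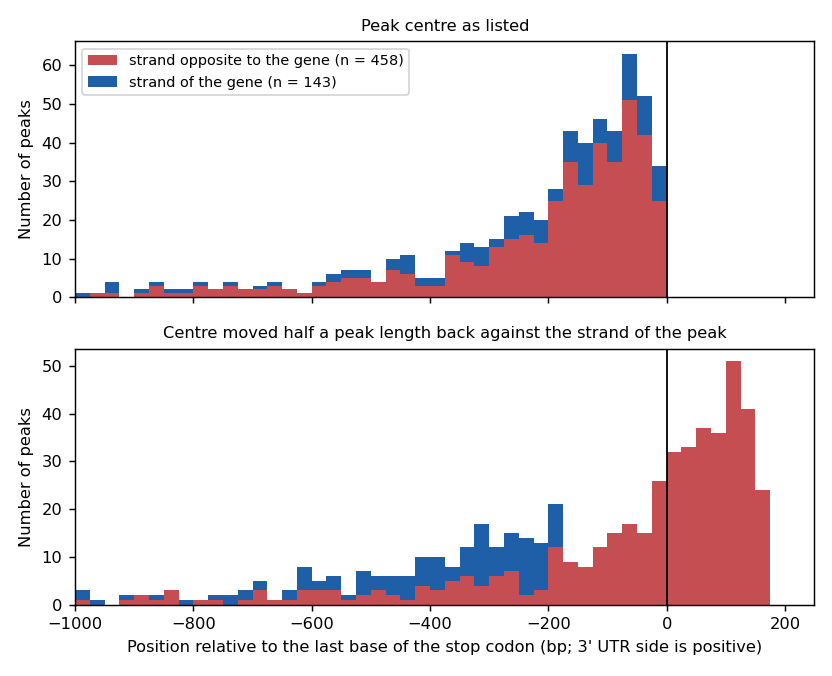
Number of peaks by distance from the stop codon (bp) for the centre as deposited and for the centre moved back 173 bp, in the 601 peaks placed in the last coding part, split by strand. Deposited centres lay before the stop codon at a median of 167 bp, and many centres of peaks on the opposite strand pass the stop codon once moved back; 38 deposited and 36 moved centres over 1000 bp before it are not drawn.

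The density of peaks depended on which position was used. In 3069 genes with a peak, last coding parts held 0.715 peak centres per kb (0.660 to 0.773), inner coding parts 0.2 and 3′-UTRs 0.249. The ratio of last to inner coding parts was 3.57, being 1.66 on the strand of the gene and 5.61 on the other strand. With the centre moved back, last coding parts held 0.576 per kb and inner coding parts 1.17, a ratio of 0.494. With the move, the number of centres in inner coding parts went from 1163 to 6779, and in last coding parts from 635 to 512. The direction of this comparison thus turned with the position assumed for the peak. Which position is right was not tested.

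Many peaks had a peak of the opposite strand nearby. A peak of the other strand lay within 1000 bp for 94 of the 150 peaks on the strand of the gene and for 293 of the 478 on the opposite strand. For the 293, this partner lay downstream in the gene in 96.9%, at a median offset of 304 bp, and it was annotated to the 3′-UTR in 59.7%. For the 94, the median offset was −186.5 bp, so the partner lay upstream. The scores of partners were within 2-fold of each other for all 94 of the first group and for 290 of the 293. FOXN2, a forkhead factor, had 258.9 on the strand of the gene and 257.9 on the other. This pair was counted in both groups, as other pairs within last coding exons could be, so the counts overlap. Partners were taken by distance alone, whatever gene they were annotated to, and whether the peaks of a pair come from the same RNA was not tested. Close pairs on opposite strands also occurred among peaks annotated to introns, as in AXL and RB1. The share with a partner was not computed for other classes of peaks or for the whole list. These values are therefore not read as particular to last-exon peaks.

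Last-exon peaks were then set against the other peaks of the same gene. In 276 genes with a peak in the 3′-UTR too, the best last-exon peak was the higher in 141, or 51.1% (45.2 to 56.9), and the scores were equal in 3. The median log2 ratio was 0.004 (−0.035 to 0.046), and in 272 genes the scores were within 2-fold. TMED2 had 3392.2 in the last coding exon and 2601.3 in the 3′-UTR. AXL had 2768.7 and 2682.6, CNN3 2362.7 and 2550.2, and RAP2B 639.4 and 687.4. In AXL and CNN3 the peaks compared were partners on opposite strands, at offsets of 109 and 179 bp, so their windows overlapped. How many of the 276 comparisons were of such partners was not counted. Near-equal scores are therefore not read as a result about separate signals in the last coding exon and the 3′-UTR. At the ends of the range, chosen after their values were seen, were UHRF1, an epigenetic reader, with 79.3 against 233, and HERC3, a ubiquitin ligase, with 33.0 against 12.7. In 152 genes with a peak in another coding exon, the best last-exon peak was the higher in 112, or 73.7% (66.2 to 80), at a median log2 ratio of 0.42 (0.23 to 0.53). AXL had 1058.6 and UBE2N 1460.5 in another coding exon. These values rest on the deposited annotation. By the moved-back centre, peaks annotated to introns lay in inner coding exons, at up to 1157.7 in AXL and 2077.4 in UBE2N. The comparison with other coding exons was not repeated with moved-back centres. A last-exon peak was the best of all peaks of the gene in 347 of 538 hosts. The 347 include 107 hosts with last-exon peaks only, where no other outcome was possible.

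**Figure D4:**
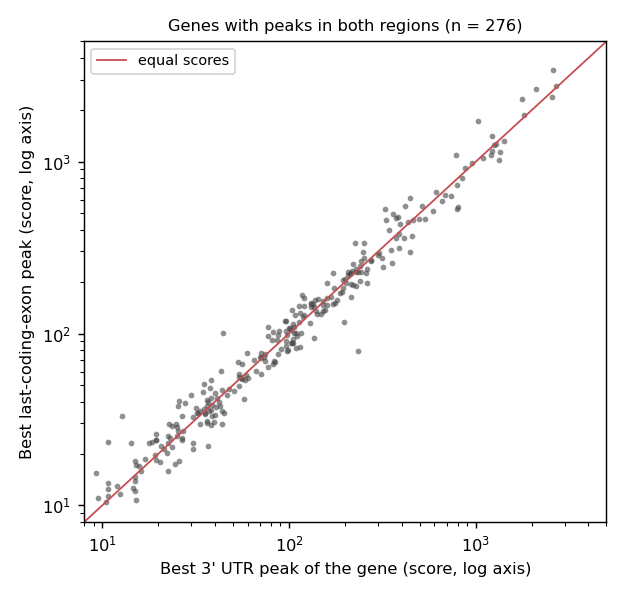
Best score in the last coding exon against best score in the 3′-UTR on log axes, 1 point per gene for 276 genes, with a line at equal scores. Points lie along the line over the whole range, and 272 of the 276 genes are within 2-fold of it. In some genes, as in AXL and CNN3, the peaks compared overlap on opposite strands.

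AU-rich and U-rich words were searched on the sense strand of the gene only. ATTTA was in the window of 38.1% (34.3 to 41.9) of last-exon peaks, 34.3% (31.6 to 37.2) of peaks in other coding exons and 52.7% (50.5 to 54.9) of peaks in 3′-UTRs. TATTTAT, which contains ATTTA, was in 5.73%, 4.42% and 8.23% of them, and TTTTT in 51.3%, 46.1% and 78.5%. The mean GC content of the windows was 44.7% (SD 9.2 over 628 windows), 47.9% (SD 12.9) and 39.1% (SD 7.7). The last-exon windows thus lay between the other coding exons and the 3′-UTRs on each of these measures by value. For all 3 words the interval overlapped that of the other coding exons, and for TATTTAT it also overlapped that of the 3′-UTRs. Where the moved-back centre lay in the 3′-UTR, 47.1% (41.2 to 53.2) of the windows held ATTTA, against 31.5% (26.8 to 36.6) where it lay in the last coding part. These windows were the deposited ones. A centre that the move takes past the stop codon lay close to it, so its window tends to hold 3′-UTR. The split therefore does not bear on which position is right. When all windows were moved back, 36.5% (32.8 to 40.3) held ATTTA.

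Counted in coding bases alone, ATTTA was in 111 of 604 windows, or 18.4% (15.5 to 21.7). It occurred 0.898 times per kb of these coding bases and 0.839 times per kb over the last coding parts of all genes with a peak. The element ran into the stop codon in 4 of the 316 peaks whose window held that codon, or 1.27%, and in 38 of 3069 genes, or 1.24%. To show coding sequence around the element, 30 bases are printed for the 5 highest-scoring hosts with ATTTA in the coding bases of a window, with ATTTA in capitals and on the mRNA strand. They lie in hg38 at chr12:93410039-93410068 on the − strand (UBE2N), chr18:12987028-12987057 on the + strand (SEH1L, a nucleoporin), chr1:225403414-225403443 on the − strand (LBR, the lamin B receptor), chr4:77048266-77048295 on the − strand (CCNI, a cyclin) and chr3:32484068-32484097 on the − strand (CMTM6, a membrane protein that stabilises PD-L1).
UBE2N: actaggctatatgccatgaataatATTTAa
SEH1L: aatcccttacctgagaatgaagggATTTAa
LBR: tatttctacataATTTAtttcaccatgttg
CCNI: tgtgtggcactgATTTAtcaagacaagagg
CMTM6: gtgtttggATTTAtagcaagttttatgttc

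The scores of these peaks were 2638.5, 1017.0, 727.0, 725.8 and 631.9. In UBE2N and SEH1L the element ended in the stop codon, and in LBR, CCNI and CMTM6 it lay in the coding sequence ahead of it. A match is a description of the letters and not of a binding site.

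The hosts were grouped by 11 lists of gene symbols, and no list was tested. Genes of C2H2 zinc finger proteins, transcription factors whose finger array is often encoded by the last exon, were hosts in 46 of 108 with any peak, or 42.6% (33.7 to 52.0), against 540 of 3343, or 16.2% (14.9 to 17.4), for all genes. Their 61 peaks had a median score of 22.3, against 66.8 for all 635, and a median coding part of 1460 bp. ZNF22 was the highest at 526.9, followed by SP3 at 243.0 and ZBTB18 at 160.8. Of the 61 peaks, 31 had the strand of the gene. In the longest class of coding parts the median score was 21.0 (14.9 to 25.2) for zinc finger hosts and 41.8 (29.9 to 64.1) for other hosts.

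Genes of the secretory pathway and chaperones were hosts in 20 of 80, or 25% (16.8 to 35.5). Their 25 peaks had a median of 220.2. After TMED2 and PDIA4 came DNAJA2, a co-chaperone of HSP70, at 920.9. The interval of this share overlapped that of all genes, 16.2% (14.9 to 17.4). For every list below, the interval of the share of hosts held 16.2%. The counts of hosts are therefore not read as results about these lists. RNA-binding and splicing genes were hosts in 17 of 83, or 20.5% (13.2 to 30.4), with 19 peaks at a median of 227.1. HNRNPL, a splicing regulator, had 1061.1, the stress granule protein G3BP1 had 1050.8, and PCBP2, a poly(C)-binding protein, had 1047.4. The list of small GTPases gave 14 hosts of 57, or 24.6% (15.2 to 37.1), with 16 peaks at a median of 150.2. This list was led by ARF6, a GTPase of membrane traffic, at 1271.8. Its next members were ARL6IP1, which is a membrane protein caught by the symbol pattern and no GTPase, at 1255.1, and SAR1A, the GTPase of COPII vesicles, at 799.5.

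Ubiquitin and proteasome genes were hosts in 27 of 136, or 19.9% (14 to 27.3), with 32 peaks at a median of 60.2. After UBE2N, the E1 enzyme UBA6 had 226.4 and the E2 enzyme UBE2E2 had 203.8. Receptors and integrins gave 10 hosts of 52, or 19.2% (10.8 to 31.9), with 10 peaks at a median of 97.4. After AXL and CD9 the WNT receptor FZD6 had 233.9. Kinases and phosphatases gave 18 hosts of 102, or 17.6% (11.5 to 26.2), with 19 peaks at a median of 119.2. After PRKAR1A came the phosphatase subunit PPP6C at 554.8 and the mitotic kinase NEK7 at 376.6. Cytoskeleton and motor genes gave 4 hosts of 43, or 9.3% (3.68 to 21.6), with 4 peaks at a median of 1049. The hosts were CNN3, CAPZA1, CAPZA2 at 223.4 and SPTSSA, a subunit of serine palmitoyltransferase that belongs to the list by its symbol alone.

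Transcription factors outside the zinc finger list were hosts in 18 of 78, or 23.1% (15.1 to 33.6). Their 23 peaks had a median of 134.3. MYC, the proto-oncogene, had 335.3 on the strand of the gene and 304.7 on the other, FOXN2 258.9, and ELK4, an ETS factor, 238.8. The centre of this ELK4 peak lay in an inner coding exon of the gene's GENCODE canonical transcript. Cell cycle and apoptosis genes gave 8 hosts of 67, or 11.9% (6.18 to 21.8). Their 10 peaks had a median of 24.75, and 3 of the 10 were in MCM9. The list was drawn by symbol, so this median is not read as a trait of cell cycle genes. The retinoblastoma gene RB1 had 263.1, while the kinases CDK9 and CDK13 had 55.1 and 48.5. Translation factors gave 4 hosts of 26, or 15.4% (6.15 to 33.5), with 4 peaks at a median of 109.4. The hosts were the cap-binding protein EIF4E at 544.7, EIF5AL1 at 202.6, EIF3CL at 16.2 and the kinase RPS6KA5, caught by its symbol. EIF5AL1 is near-identical to EIF5A, so its reads are of uncertain origin.

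**Figure D5:**
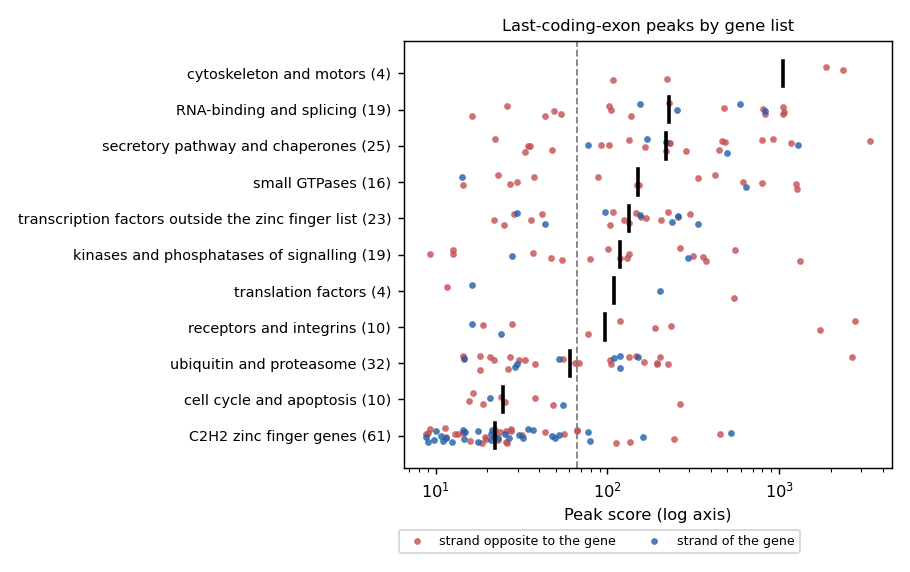
Peak scores in last coding exons on a log axis, 1 point per peak, for 11 gene lists with the number of peaks in brackets; black bars are list medians, the dashed line is the median of all 635 peaks (66.8), and colours give the strand relative to the gene. The zinc finger peaks lie mostly below the dashed line, at a median of 22.3, and hold the most peaks on the strand of the gene.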

How the data were processed

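RIP-seq was performed on 2 HuR and 2 IgG samples of MDA-MB-231 cells, grouped by antibody per the labels. Per the submitters' processing notes, STAR, HOMER and hg38 were used. The methods name ANNOVAR for annotation, while the list carries a HOMER annotation command. Per the methods, peaks were kept where abundance changed. Versions, peak settings, thresholds, tag shifts and pooling are not given in the sources used here, and each can move positions or scores.

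The deposited list gave a peak score, on a scale the authors did not state, a focus ratio, which is a fraction of reads placed on the expected side of the centre, and a distance to the nearest start site in bp. It held no counts, so the depth of each library is unknown. Of the scores under 100 in the whole list, 100% after rounding lay within 0.051 of a multiple of 0.2447, a tolerance that spans 41.7% of the range. The step was chosen on these same scores as the one with the highest such share. The 41.7% is therefore not a fair baseline for it. If this step is 1 tag, the lowest last-exon score stands for 36 tags and the median for 273.

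The host gene was found through RefSeq for 632 of 635 peaks and had a GENCODE 44 canonical transcript for 628. RefSeq exon models were not used here. Shares have Wilson 95% intervals, medians have order-statistic intervals and densities have exact Poisson intervals. No p-value was computed. Python 3.11.15, numpy 2.4.6, scipy 1.17.1, pandas 2.3.3, pysam 0.24.0 and matplotlib 3.10.9 were used, and functions were checked on simulated data.

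The members and lists were chosen with earlier results of these data known. Named genes were the 10 hosts with the highest score, the 5 with most peaks, the 3 highest 1-exon hosts, the 3 highest of each list and any host among 14 genes the study discusses. Hosts of printed sequences, SLC24A5, UHRF1, HERC3, SPTSSA and RPS6KA5 were named after their values were seen. Alternatives were a score filter, 1 peak per merged locus, transcripts of 1 exon left out, GENCODE annotation, moved-back centres, other motifs and strand.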

Additional observations from a re-analysis of the deposited data

How the results depend on the processing

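Of 37 alternatives over 9 results, 21 moved the value by less than its interval or, for the number of peaks, by less than 1.5 times. That number was 504 with 1 peak per merged locus, 598 without transcripts of 1 exon, 667 by GENCODE transcripts and 540 with the centre moved back. With the score at or above the list median, the number of peaks was 422, their share of exon-annotated peaks 40.04% and the distance to the stop codon 146 bp. With the centre moved back, the share was 7.173%, the median score 49.7, the distance 58 bp and the share of genes with the higher peak in the last coding exon 58.38%, and the density ratio of 3.57 turned to 0.494. That share of genes, 58.38%, came from 173 genes, against 276 for the main value. It was 60.87% with median scores per gene. With peaks on the strand of the gene it was 70.37% (51.52 to 84.15) in only 27 genes, and the distance was 209 bp. The median score was 52.5 with 1 peak per merged locus. The share on the strand of the gene was 45.34% in coding parts longer than a peak. The motif share was 5.732% with TATTTAT, 51.27% with TTTTT and 18.38% in coding bases only. The cause of these moves was not tested. The density ratio and the coding-part alternative were added after the data were seen. The difference of median log2 score stayed between 0.50 and 0.75 under its alternatives. No paired analysis was possible because values of single samples are not in the list used here, and for that reason leaving out each replicate was not run. Depth is unknown, so no peak can be read as absent.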
